A study of Mus musculus with 2 samples.

Results

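Thioredoxin, glutathione and NRF2 antioxidant genes were examined in T helper 2 (Th2) cells, a CD4 T cell subset known for its production of interleukin-4 (IL-4), from mice without Ecm1 and from wild-type mice. The set was given as 39 gene symbols. It comprised every probe set of the array annotated with a single symbol from that set, and a gene was read from the probe set with the highest mean log2 signal, called its brightest. This gave 36 genes of the 18193 named on the array. Prdx1 is annotated on 5 probe sets only together with another gene, and no probe set with a single symbol was used for Prdx5 or Prdx6, so these 3 peroxiredoxins were not analysed here. Of the 36 genes, 35 reached the floor on both arrays and are called measured, the floor being the median signal of an array (65.5 in the knockout and 69.2 in wild type). The exception was the glutathione transferase Gsta4, at 10.6 and 8.0.

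The series held 2 Affymetrix arrays, 1 for Ecm1 knockout and 1 for wild-type Th2 cells, both of strain C57BL/6 and described as from female mice of 6 weeks. Ecm1 codes for an extracellular matrix glycoprotein. In both groups, CD4 cells were taken from spleen on magnetic columns and stimulated for 4 days by antibodies to CD3 (3 µg/ml, on the plate) and to CD28 (2 µg/ml). Th2 conditions were 10 ng/ml of IL-4, a unit that the label gives incompletely, with blocking antibodies to IFN-γ and IL-12 at 10 µg/ml each. The sources used here do not give the knockout allele, how many animals each array represents or any pooling. With 1 array per group no test was possible, and each difference describes these 2 arrays only.

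Cells constantly reduce hydrogen peroxide and lipid peroxides that arise from respiration and oxidases. Peroxiredoxins are reduced by thioredoxin, thioredoxin by thioredoxin reductase, and glutathione peroxidases by glutathione, with NADPH as the final electron donor in both systems. The transcription factor NRF2 (Nfe2l2), held low by the adaptor KEAP1, switches on many of these genes through antioxidant response elements when oxidants or electrophiles modify KEAP1. Activated T cells depend on glutathione synthesis and thioredoxin for the growth that follows stimulation.

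Values that touch the results below concern the make-up of the samples. Ecm1 read 19.3 in knockout cells and 29114.7 in wild-type cells. The sample descriptions name liver, but all 9 hepatocyte markers named on the array were under the floor on both arrays, as were all 5 erythroid markers. All 11 T cell markers were measured, with a summed signal of 56921.6 against 109004.1 in wild-type cells, and 5 of them, Cd4 among them (932.2 against 3022.3), were at least 2-fold lower. Of 8 cytotoxic and natural killer markers 5 were measured and 2 reached the floor on 1 array, with summed signals of 9776.5 and 32226.6 (6 at least 2-fold lower, bounds included, and Ncr1 under both floors). The plasma cell, B cell and macrophage marker lists had higher summed signals in the knockout. Of 10 plasma cell markers 9 were measured and Tnfrsf17 reached the floor in the knockout alone. Their summed signal was 121171.5 against 50079.6, and 8 were at least 2-fold higher, Tnfrsf17 by its bound. Of 11 B cell markers 10 were measured (35523.4 against 18049.3, 4 at least 2-fold higher, Pax5 under both floors). Of 12 macrophage markers 9 were measured (10570.7 against 2635.0, 5 at least 2-fold higher). Fcgr1 and Mrc1 reached the floor in the knockout alone, and Itgam was under both floors. Not all of these genes, Irf4 and Fcgr2b among them, are exclusive to the cell type they are listed for. The sums therefore do not measure numbers of such cells. Of 7 mast cell and basophil markers, only Cpa3 was measured (103.4 against 75.2). The Y-linked Eif2s3y read 2214.4 in knockout cells and 25.0 in wild-type cells, Kdm5d 410.0 and 20.3, and Uty 104.8 and 44.5. Xist read 8715.3 and 19739.9. The Y-linked signal goes against the description of the knockout sample as female. A difference in sex can therefore not be told apart from one in genotype in the values below. In such bulk RNA, fewer cells of a type and less RNA per cell cannot be told apart.

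Most antioxidant transcripts lay within 2-fold between the arrays, and a few lay apart in each direction. Differences are given as log2 of knockout over wild type after centring, that is, after subtracting the median difference of all measured probe sets (-0.10). Gclm, Gsr, Mgst1 and Hmox1 were higher in the knockout by 2-fold or more, Txnip, Mgst2 and Selenbp1 were lower by 2-fold or more, and the other 28 of the 35 measured genes lay in between. Among all 10144 genes measured on both arrays, 7.15% lay that far above wild type and 4.45% that far below. Applied to 35 genes these shares come to 2.5 and 1.56 genes, so the counts of 4 (11.4%) and 3 (8.57%) are read as close to the background and not as a result about the set. In the signals without centring, the set again had 4 higher and 3 lower genes, while all genes went from 725 higher and 451 lower to 587 higher and 611 lower. The median of the set was 0.21 against 0.04 for these 10144 genes, and 23 of 35 (65.7%) lay above 0 against 53.1% of all genes. The only internal measure of error was the SD between probe sets. It is the SD of the difference between a gene's 2 brightest probe sets, divided by the square root of 2. It came to 0.36 on the log2 scale over 4657 genes and does not cover error between animals, cultures or arrays. Of the 35 genes, 15 lay within 1 such SD of 0.

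**Figure D1:**
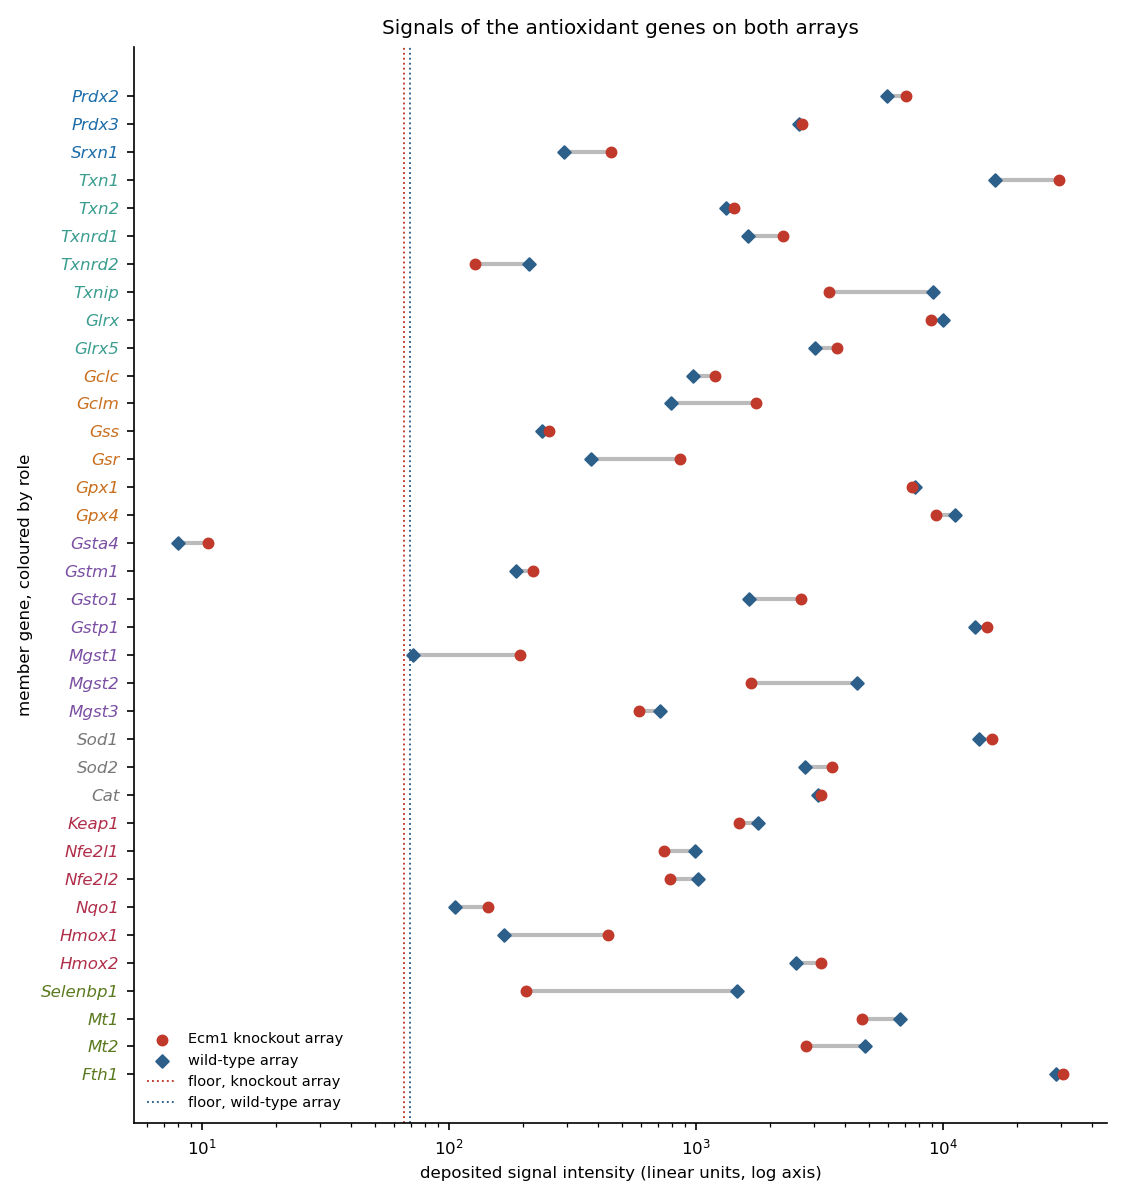
Deposited signal intensity (linear units on a log axis) of the 36 antioxidant genes on the Ecm1 knockout array (circles) and the wild-type array (diamonds), 1 probe set a gene, with the floor of each array as a dotted line and gene names coloured by role. Most pairs nearly touch, Selenbp1, Txnip and Mgst2 lie clearly lower in the knockout, Mgst1 starts just above the floor in wild type, and signals of different genes are not comparable with each other.

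**Figure D2:**
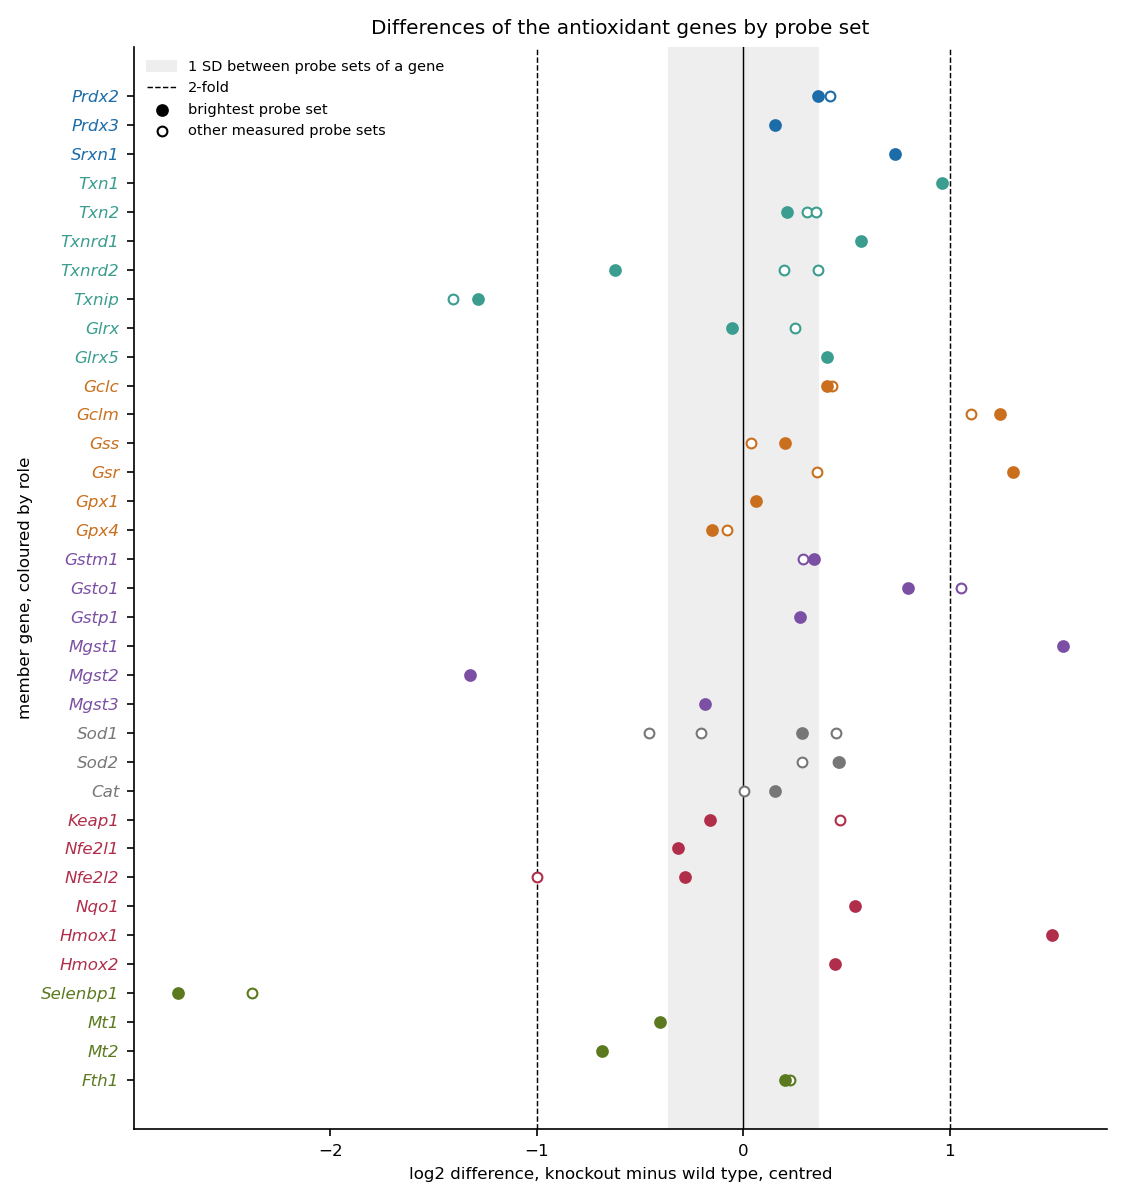
Log2 difference, knockout minus wild type, of the 35 measured genes, with the brightest probe set filled and other measured probe sets open. The shaded band is 1 SD between probe sets (0.36) and the dashed lines mark 2-fold. Both probe sets of Gclm, Txnip and Selenbp1 lie beyond 2-fold, whereas those of Gsr are apart.

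Peroxiredoxins reduce peroxides with a reactive cysteine, and sulfiredoxin repairs that cysteine once it is overoxidised. The cytosolic Prdx2 read 7112.5 in knockout cells and 5944.1 in wild-type cells, a log2 difference of 0.36, with 0.42 in its other probe set. The mitochondrial Prdx3 read 2700.5 and 2604.3 (0.16). Both differences were no larger than about 1 SD between probe sets. The sulfiredoxin gene Srxn1, a textbook NRF2 target, read 453.9 and 293.2 (0.73). That is 1.66-fold higher in the knockout, short of 2-fold, and its other 3 probe sets were under the floor on at least 1 array. Among these, a probe set reached the floor in the knockout alone (92.0 and 51.5) and another in wild type alone (36.8 and 75.6).

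Thioredoxin itself was higher in the knockout and its inhibitor lower. Txn1, the cytosolic thioredoxin, read 29559.7 in knockout cells and 16265.2 in wild-type cells, 1.95-fold higher after centring (0.96) and so just under the 2-fold line. Txnip, whose product binds reduced thioredoxin and also restrains glucose uptake, read 3472.3 and 9094.0, 2.44-fold lower (-1.29). Its other probe set read 228.3 and 648.9 (-1.40), so both probe sets of Txnip were beyond 2-fold. Txnip stayed at least 2-fold lower under all 8 alternative settings, between -1.43 and -1.29, while Txn1 ranged from 0.49 (a bound from its dim second probe set) to 1.08. The summed T cell marker signal was lower on the same array, as given above, and its part in the Txnip difference was not tested.

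The rest of the thioredoxin branch differed less. Txnrd1, the cytosolic reductase that returns thioredoxin to its active form, read 2254.1 in knockout cells and 1629.3 in wild-type cells (0.57). The mitochondrial thioredoxin Txn2 read 1423.9 and 1321.5 (0.21), with 0.31 and 0.35 in its other probe sets. Its reductase Txnrd2 read 127.8 and 210.9 (-0.62), but 2 dimmer probe sets were at 0.20 and 0.36. No direction can therefore be given for Txnrd2. The glutaredoxin Glrx, which removes glutathione from protein thiols, read 8954.6 and 9986.4 (-0.05), with its other probe set at 0.25. Glrx5, the mitochondrial glutaredoxin of iron-sulfur cluster assembly, read 3729.7 and 3021.4 (0.41).

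The upstream sequence of Txnip is shown because the gene is known to be driven by glucose-sensing factors through paired E-box-like elements. A pair of CACGNG boxes 5 bases apart (either strand, N any base, in 300 bases from 250 before to 50 after a start site) was found in the window of Txnip and of no other of the 34 genes of the set with an entry in the RefSeq promoter table. Of all 32851 windows of the table, 16 (0.0487%) held it. This motif was chosen after the Txnip values were seen and for elements already known in this gene. Its match in Txnip and its rarity elsewhere are therefore not results of these data. A match describes letters, not binding. The sequence below is the 250 bases before the start site, 5′ to 3′, on the plus strand of GRCm38.p6 at chr3:96557707-96557956, with the pair in capitals, 85 to 69 bases before the start.
Txnip: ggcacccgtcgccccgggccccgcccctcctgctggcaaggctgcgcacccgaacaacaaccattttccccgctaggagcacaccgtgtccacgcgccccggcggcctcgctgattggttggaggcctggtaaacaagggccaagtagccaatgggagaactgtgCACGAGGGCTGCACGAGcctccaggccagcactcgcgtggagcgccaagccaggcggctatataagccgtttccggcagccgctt

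Of 6 genes that make, recycle or spend glutathione, 2 (33.3%, against 7.15% of all measured genes) were higher by at least 2-fold and 4 lay within 2-fold. With 6 genes these counts describe the arrays and show nothing particular to this branch. Glutamate-cysteine ligase, which sets the rate of glutathione synthesis, has a catalytic subunit, Gclc, and a modifier subunit, Gclm, that raises its activity. Gclm read 1749.2 in knockout cells and 792.8 in wild-type cells, 2.37-fold higher (1.24), and its other probe set read 193.6 and 96.8 (1.10). Gclc read 1199.0 and 970.8 (0.41), with 0.43 in the other probe set. Modifier and catalytic subunit thus differed in size, and in each the probe sets lay close together. Glutathione synthetase, Gss, which adds the last amino acid, read 255.1 and 237.8 (0.20).

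Gsr, the reductase that regenerates glutathione with NADPH, read 863.4 in knockout cells and 374.6 in wild-type cells, 2.48-fold higher (1.31). Its other probe set read 337.4 and 282.9 (0.36), and the mean of both came to 0.83, so the 2-fold call of Gsr rests on 1 probe set. The peroxidases that spend glutathione were nearly level. Gpx1, the abundant cytosolic enzyme, read 7509.1 and 7735.5 (0.06, and below 0 under no centring, quantile normalization or loess). Gpx4, which reduces lipid peroxides in membranes and holds off ferroptosis, read 9347.1 and 11155.7 (-0.15), with -0.08 in its other probe set.

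Glutathione transferases, which attach glutathione to reactive compounds, were split. Mgst1, a membrane-bound transferase with peroxidase activity, read 194.6 in knockout cells and 71.5 in wild-type cells, 2.92-fold higher (1.55). The wild-type signal lay just above the floor of 69.2 and its other probe set was under the floor on both arrays. Mgst2, a membrane-bound relative that can also make leukotriene C4, went the other way, with 1665.4 and 4476.1, 2.50-fold lower (-1.32) from its single probe set. Mgst3 read 586.4 and 714.9 (-0.18). The 3 members of this small family were thus higher, lower and nearly level. The summed signal of macrophage markers was higher and that of T cell markers lower on the knockout array, as given above. The part of either cell type in the Mgst1 and Mgst2 differences was not tested.

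Among the soluble transferases, Gsto1, which also has glutaredoxin-like activity, read 2654.3 in knockout cells and 1638.4 in wild-type cells (0.80), and its other probe set was just past 2-fold at 1.05. Gstp1 read 15136.2 and 13445.8 (0.27), and Gstm1 219.4 and 185.9 (0.34). Neither differed by more than the spread between probe sets. Gstp1, Gstm1 and Fth1 have near-identical relatives or copies that can share signal with their probe sets, so their single-gene values are uncertain.

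Superoxide dismutases turn superoxide into hydrogen peroxide, which catalase breaks down, and all 3 genes lay within 2-fold. The cytosolic Sod1 read 15860.7 in knockout cells and 13993.2 in wild-type cells (0.28). A probe set of like brightness was at 0.45, while 2 dimmer ones were at -0.46 and -0.21, so the probe sets of Sod1 disagree in direction. The mitochondrial Sod2 read 3557.9 and 2772.2 (0.46), with 0.46 and 0.28 in its other measured probe sets. Catalase, Cat, read 3224.2 and 3110.5 (0.15).

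The transcripts for NRF2 and its regulator were not higher in the knockout by their brightest probe sets. Nfe2l2 read 782.1 in knockout cells and 1020.7 in wild-type cells (-0.28), and its other probe set read 106.6 and 228.7 (-0.998). Nfe2l1, the related factor that also drives proteasome genes, read 740.7 and 989.6 (-0.32). Keap1 read 1490.5 and 1790.7 (-0.16), but its other probe set was at 0.47. NRF2 is controlled mainly through protein stability, which transcript levels do not measure.

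Of the target enzymes in this branch, Hmox1 stood apart. Hmox1, the inducible heme oxygenase, read 440.8 in knockout cells and 167.7 in wild-type cells, 2.82-fold higher (1.50) from its single probe set. With the floor at the 70th percentile its wild-type signal fell under the floor, which left a bound of 0.59. The constitutive Hmox2 read 3204.0 and 2532.5 (0.44). Nqo1, a quinone reductase often used as a readout of NRF2, read 143.3 and 105.6 (0.54). Macrophages express Hmox1 strongly, and 5 of 12 macrophage markers were at least 2-fold higher on that array. The markers measured on both arrays ranged from Chil3 (1039.5 against 78.0, 3.84) to the level Tyrobp (445.5 against 470.7, 0.02). The part of macrophages in the Hmox1 difference was not tested.

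The promoters of the set were searched for the core of the antioxidant response element, TGACNNNGC, on either strand (GCNNNGTCA when read on the other). Of 34 genes of the set with an entry in the RefSeq table, 8 (23.5%) held it in at least 1 window: Gclm, Mgst1, Mt2, Nfe2l2, Prdx1, Sod1, Srxn1 and Txnrd1. The share was 14.0% among all 27025 genes listed there. Of the genes at least 2-fold higher, Gclm and Mgst1 held a match, and Gsr and Hmox1 have no entry in the table. Txnip, Mgst2 and Selenbp1, the 3 lower genes, held none in these windows. Genes with a match thus included higher, lower and nearly level transcripts, from 1.55 for Mgst1 to -0.69 for Mt2. No set test was run on these shares.

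The 250 bases before the start sites of Gclm (chr3:122245307-122245556) and Mgst1 (chr6:138140277-138140526), both on the plus strand of GRCm38.p6, are shown as the higher genes with a match. The core is in capitals, 134 to 126 bases before the start in Gclm and 56 to 48 in Mgst1, and both read on the minus strand relative to the gene.
Gclm: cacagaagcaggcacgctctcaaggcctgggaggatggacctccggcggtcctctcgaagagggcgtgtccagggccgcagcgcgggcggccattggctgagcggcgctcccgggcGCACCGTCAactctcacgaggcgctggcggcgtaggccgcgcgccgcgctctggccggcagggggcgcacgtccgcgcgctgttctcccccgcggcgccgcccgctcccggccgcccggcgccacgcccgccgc
Mgst1: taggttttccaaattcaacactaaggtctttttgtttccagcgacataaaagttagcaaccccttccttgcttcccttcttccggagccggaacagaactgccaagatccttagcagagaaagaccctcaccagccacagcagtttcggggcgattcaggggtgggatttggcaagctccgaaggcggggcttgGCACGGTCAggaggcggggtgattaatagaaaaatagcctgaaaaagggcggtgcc

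Of the other genes with a match, Prdx1 was not analysed here and the match of Srxn1 lies after the start site. Shorter stretches are shown for the remaining 4 genes. They lie at chr10:82859089-82859147 (Txnrd1), chr16:90220681-90220739 (Sod1), chr8:94172514-94172572 (Mt2), all on the plus strand, and chr2:75704870-75704913 on the minus strand (Nfe2l2), in GRCm38.p6, 5′ to 3′ along the gene with the core in capitals.
Txnrd1: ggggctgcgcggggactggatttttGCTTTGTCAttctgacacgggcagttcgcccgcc
Sod1: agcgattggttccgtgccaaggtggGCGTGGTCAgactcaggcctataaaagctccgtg
Mt2: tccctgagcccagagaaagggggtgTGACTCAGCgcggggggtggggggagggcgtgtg
Nfe2l2: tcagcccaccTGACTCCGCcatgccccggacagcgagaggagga

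Metal-binding members were lower or level, and Selenbp1 lay farther from 0 than any other measured gene of the set. Selenbp1, which oxidises methanethiol and binds selenium, read 205.7 in knockout cells and 1472.7 in wild-type cells, 6.67-fold lower (-2.74). Its other probe set read 220.5 and 1233.8 (-2.38), and the value stayed between -2.84 and -2.32 (a bound, with the floor at the 70th percentile) under all 8 alternative settings. Both probe sets of Selenbp1 therefore show a like difference. They may also read the closely related Selenbp2. The summed T cell marker signal was lower in the knockout, and its part in the Selenbp1 difference was not tested.

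The metallothioneins, small cysteine-rich proteins that buffer zinc and copper, were both lower without reaching 2-fold. Mt1 read 4700.4 in knockout cells and 6674.1 in wild-type cells (-0.40), and Mt2 2800.0 and 4838.2 (-0.69). The second probe set of Mt1 was under the floor on both arrays, and averaging it in brought Mt1 to -1.54. Fth1, the ferritin heavy chain that stores iron in a safe form, read 30586.7 and 28582.8 (0.20), with 0.23 in its other probe set. Both metallothioneins lay beyond 1 SD between probe sets from 0, and Fth1 lay within it.

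**Figure D3:**
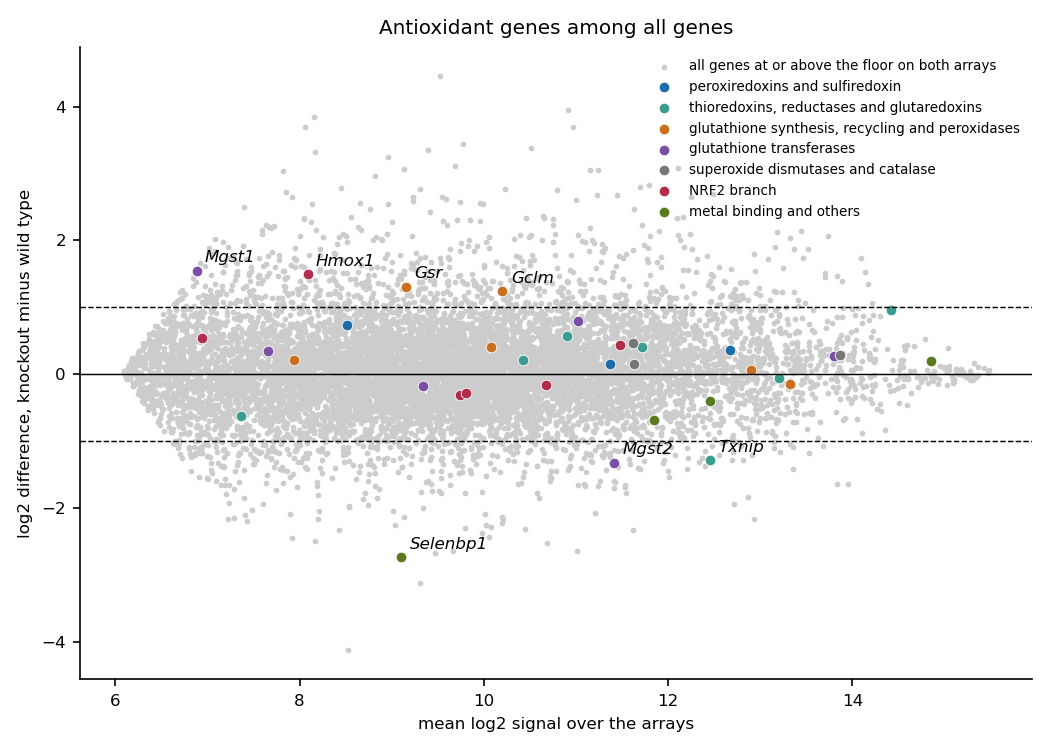
Log2 difference, knockout minus wild type, against mean log2 signal for the 10144 genes measured on both arrays (grey), with the 35 measured antioxidant genes coloured by role and dashed lines at 2-fold. The antioxidant genes lie within the cloud of all genes, with Mgst1, Hmox1, Gsr and Gclm above the upper line and Txnip, Mgst2 and Selenbp1 under the lower one.

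Around these genes, the list for cystine uptake and cysteine supply had the highest median. Cysteine is the limiting building block of glutathione, but the list also holds carriers of other amino acids. The background for every list from here on is that of all measured genes, 7.15% past 2-fold upwards and 4.45% downwards, and with 5 to 21 measured genes a list the counts describe these arrays and show nothing particular to a list. Of 5 measured genes in the list for cystine uptake and cysteine supply, 2 passed 2-fold upwards in the knockout and none downwards. The median was 0.79 (0.93 with 3 more genes at their bounds). The gene at that median of 0.79 was the amino acid carrier Slc1a5, with the carriers Slc38a2 at 0.51 and Slc38a1 at 0.08. The median therefore does not describe cysteine supply alone. Cth, the last enzyme of cysteine synthesis from methionine, read 586.0 in knockout cells and 100.0 in wild-type cells (2.65). Slc3a2, the heavy chain shared by the cystine carrier and other amino acid carriers, read 4444.9 and 1655.5 (1.53). The neutral amino acid carrier Slc1a4 (183.7 and 62.0) and the cystine carrier Slc7a11 (135.9 and 50.4) were under the floor in wild type, which left bounds of 1.51 and 1.08, and Cbs, which makes cystathionine, was under the floor in the knockout (59.5 and 77.3, a bound of -0.14). Cth, Slc7a11 and Slc3a2 are also known targets of ATF4, the transcription factor of the amino acid response, whose part in these differences was not tested.

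Other glutathione transferases and turnover genes had a median of 0.47, with 2 of 15 (13.3%) at least 2-fold higher and none lower. Chac1, which degrades glutathione in the cytosol, read 920.0 in knockout cells and 245.2 in wild-type cells (2.01), and the transferase Gstt3 425.4 and 216.7 (1.08). Gstt1 was at 0.95 and Hagh, a glyoxalase, at 0.87. The other breakdown genes measured were level, Ggct at 0.01 and Ggt5 at -0.05. NADPH supply genes had a median of 0.23, and all 13 lay within 2-fold, led by Mthfd2 (0.82), Taldo1 (0.73) and Nnt (0.71). NADPH oxidase genes had a median of 0.16, and all 6 lay within 2-fold, Cybb at 0.72 being the highest.

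Thioredoxin-fold and repair genes were spread in both directions, with 4 of 21 (19.0%) past 2-fold upwards, 2 (9.52%) downwards and 15 in between (median 0.24). Txndc5, a thioredoxin-like folding enzyme of the endoplasmic reticulum, read 8606.2 in knockout cells and 2464.5 in wild-type cells (1.91), and Selenos, a selenoprotein of the same compartment, 12240.1 and 5395.3 (1.28). Prdx4, the peroxiredoxin of the endoplasmic reticulum, read 12491.9 and 6224.0 (1.11) and was the only one of 6 further measured peroxidases past 2-fold (median 0.19). Next in size in that list was Prxl2c, which was lower in the knockout (1252.8 and 2534.6, -0.91). Plasma cells, rich in endoplasmic reticulum, had 8 of 10 markers at least 2-fold higher on the same array (1 by its bound). Their part in the Txndc5, Selenos and Prdx4 differences was not tested. On the lower side were Selenop, a secreted selenium carrier (3318.8 and 13699.7, -1.94), and the sestrin Sesn1 (992.3 and 2914.6, -1.45). Sesn2, a stress-induced sestrin, was higher (930.0 and 462.1, 1.11), so these relatives lay on opposite sides. The fourth higher gene was Txnl1, a cytosolic thioredoxin-like protein (9784.5 and 4550.0, 1.21).

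Regulators and partners of NRF2 had a median below 0 (-0.37), with 3 of 12 (25.0%, against 4.45% of all genes) past 2-fold downwards, none upwards and 9 in between. The list mixes genes that oppose NRF2 with genes that help it, so its median gives no direction for NRF2 activity. Bach2, a repressor that binds related elements and keeps lymphocytes resting, read 1591.8 in knockout cells and 5500.9 in wild-type cells (-1.69). The small Maf gene Maff read 72.3 and 229.2 (-1.56), with the knockout signal near the floor, and Rbx1, a subunit of the ligase that degrades NRF2, 167.8 and 374.5 (-1.06). Nrip1 lay at -0.64, and the scaffold Sqstm1, which can draw KEAP1 away from NRF2, at 0.61.

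Of 13 other measured genes listed here as NRF2 targets, 2 (15.4%) were at least 2-fold higher, none lower and 11 neither. Their median was 0.28, or 0.17 with 3 more genes at their bounds. Not all genes of the list are established targets, so these values do not describe NRF2 targets alone. The 2 higher genes were the porphyrin carrier Abcb6 (718.3 and 184.6, 2.06) and the reductase Ptgr1 (1720.6 and 609.3, 1.60). Iron, heme and metal genes had 1 of 16 (6.25%) higher, the heme synthesis enzyme Cpox (2594.9 and 853.6, 1.71), 1 lower, Mt3 (-1.05, with 69.2 in the knockout near the floor), and 14 neither (median 0.24). All 107 measured genes of these 9 lists together had 12 (11.2%) higher, 6 (5.61%) lower and 89 neither, against 7.15% and 4.45% of all genes. Their median was 0.23, next to 0.21 for the antioxidant genes and 0.04 for all genes.

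**Figure D4:**
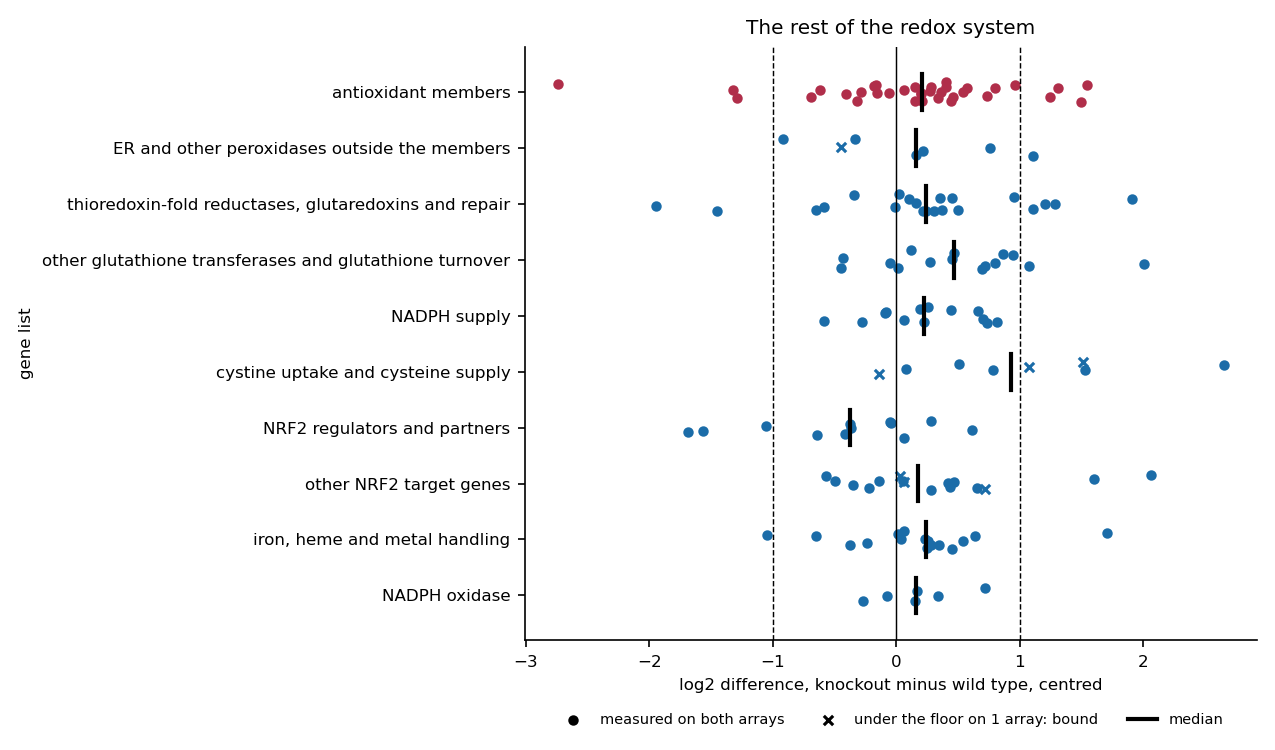
Log2 difference, knockout minus wild type, of the antioxidant genes (top row) and of 9 lists of the surrounding redox system, 1 point per gene, with crosses for genes under the floor on 1 array (bounds), black bars for list medians with bounds included and dashed lines at 2-fold. The list for cystine uptake and cysteine supply, which also holds carriers of other amino acids, has the highest median (0.93). The NRF2 regulator list, which mixes genes that oppose and genes that help NRF2, has the lowest (-0.37).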

How the data were processed

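Values were linear probe-set signal intensities as deposited, 1 array per group. How probes were summarised into probe sets is not given in the sources used. The deposited intensity values show a global scaling by the authors, since the mean over the central 96% of the 45101 probe sets was 500.0 on both arrays. Per the labels' protocols, 3 µg of RNA went into one-cycle Affymetrix labelling. The number of arrays limits the precision, and detection calls were not used.

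The platform annotation named the probe sets: 34945 had 1 gene symbol, 932 several and 9160 none, and 64 were controls. Signals were taken to log2, and differences were centred by subtracting the median difference of the 20834 probe sets that reached the floor on both arrays. A gene under the floor on 1 array has a bound against the floor. No test was run. The procedure was tried on simulated data with planted differences well beyond 2-fold, in genes well above the floor. That trial does not bear on calls close to 2-fold or near the floor, nor on error between animals, cultures or arrays. The antioxidant genes, the lists around them and the marker lists were chosen with earlier results of these data known. All members are named, with up to 4 genes of each list around them by size of difference. Sesn2, Txnl1, Sqstm1, Cbs, Slc1a5, Slc38a1, Slc38a2, Ggct, Ggt5 and the marker genes given with values were named after their values were seen. Promoter sequences are from RefSeq (GRCm38.p6). The intensity files give no genome build. Alternatives changed centring, normalization (quantile, loess with span 0.3), floor and probe set choice. Python 3.11.15, pandas 2.3.3 and statsmodels 0.14.6 were used.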

Additional observations from a re-analysis of the deposited data

How the results depend on the processing

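No paired analysis was possible because there was only 1 array of each genotype, and for the same reason no array could be left out. Of 259 values of the antioxidant genes under 8 alternatives, 249 moved by less than the SD between probe sets and 10 moved by more. Many of these values could hardly move. Leaving out centring or changing the floor shifts genes measured on both arrays by the same small amount, and many genes kept their probe set. Most of the 10 came from settings that read other probe sets, so the count of 249 is no measure of robustness. A gene without a value under an alternative was not counted there. Of the genes past 2-fold, Mgst1 had a value under only 5 of the 8 alternatives, and Mgst2 and Hmox1 under 7. None of the 7 genes past 2-fold changed sign where it had a value. Among the others Txnrd2, Gpx1, Glrx and Keap1 did under at least 1 alternative. Under a floor at the 70th percentile the antioxidant genes had 2 past 2-fold upwards, with only 27 then measured on both arrays. All genes then had 416 higher and 285 lower, and the genes around the set 3 lower. With the second brightest probe set, which 19 antioxidant genes had on both arrays, 2 were higher, and all genes had 340 higher and 232 lower. With no floor, all genes had 2818 higher and 2316 lower, the genes around the set 20 higher and 10 lower (12 and 6 in the values measured on both arrays with the floor), and the SD between probe sets was 1.10.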
